A study of Rattus norvegicus with 10 samples.

Results

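Genes that mark the subfields of the hippocampus and its excitatory neurons were read out of the gene counts of dissected CA1 tissue, to see how evenly the subfields were represented over the libraries. The members were 36 genes chosen by name, namely 7 CA1, 4 CA2, 6 CA3 and 12 dentate gyrus markers and 7 genes of excitatory neurons in general. A row was found for 34 of them among 32545 genes, 33 under their own name and Nectin3 under its older symbol Pvrl3. Levels of Pou3f1 and Neurod2 were not analysed here. Of the 34, 30 passed the filter on low counts and were tested among 15032 genes.

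Transverse slices of 400 µm were cut from the right hippocampus of adult male Wistar rats, 5 to 7 weeks old, and CA1 was dissected from them for RNA-seq. SKF is an agonist of the D1/D5 dopamine receptors, Aβ is 200 nM of oligomeric Aβ(1-42), CSP is a glucose-derived carbon nanosphere and CSP-TTK21 is that sphere bound to TTK21, an activator of the CBP/p300 histone acetyltransferases, both at 0.36 µg/ml. Of 5 groups, CSP-TTK21 alone had neither SKF nor Aβ, and the other 4 shared SKF, given by itself (SKF), with Aβ (SKF+Aβ), with Aβ and the bare sphere (SKF+Aβ+CSP) or with Aβ and the loaded sphere (SKF+Aβ+CSP-TTK21). Each group had 2 libraries, each pooling slices from more than one animal, collected 1 h after treatment, which began once basal responses had been recorded for 30 min.

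The hippocampus is wired as a loop, in which granule cells of the dentate gyrus project to CA3, CA3 to CA1 and CA1 to the subiculum, with CA2 as a small field between CA3 and CA1. Each field is built of principal neurons that use glutamate and that share genes such as Slc17a7, the vesicular glutamate transporter, while other genes are strong in a single field. CA1 lies against the dentate gyrus across the hippocampal fissure, so field markers describe which cells a dissection holds. Few of these genes are exclusive to a field. Prox1, for instance, is also made by some interneurons, and Calb1, the calcium buffer calbindin, by interneurons and superficial CA1 pyramidal cells.

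Total counts were 6753742 to 8473407 per library, at which 3 counts, the limit that a count of 0 allows, are worth 0.354 to 0.444 CPM, the count scaled to a common library size. Levels are CPM normalized with TMM factors, and they are compared between libraries and never between genes, since no transcript lengths were used. A pair of values is replicate 1 and replicate 2 of a group, and "with" names what was added to SKF. Counting noise was exceeded within every pair of replicates, the chi-square divided by its degrees of freedom being 4.97 to 12.6, so none was counted as a repeat of another. In such bulk tissue, fewer cells of a type and less RNA per cell cannot be told apart.

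Of the 7 CA1 markers, 4 had enough counts to be tested. Dentate and CA3 markers passed the same filter, so this does not tell CA1 from the other fields. Wfs1, which encodes an endoplasmic reticulum protein and is strong in CA1 pyramidal cells, had 137 and 231 CPM in SKF, 372 and 113 with Aβ added, 152 and 187 with Aβ and CSP, 339 and 111 with Aβ and CSP-TTK21, and 140.1 and 98.1 under CSP-TTK21 alone. Mpped1, a phosphoesterase gene, had 155 and 216 CPM in SKF, 149.5 and 176 with Aβ added, 158 and 150.4 with Aβ and CSP, 189.8 and 186 with Aβ and CSP-TTK21, and 202 and 147 under CSP-TTK21 alone. Fibcd1 was listed at 0 in every one of the 10 libraries, as were the endothelial gene Cldn5, the collagen gene Col1a2 and the CA2 receptor gene Avpr1b, while the endothelial gene Flt1 had 240 to 691 counts. Spink8 had 0 to 3 counts, which is at the limit of detection. Neither gene was tested, and whether the listed zeros reflect the tissue or the counting cannot be told apart.

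Of 12 dentate and 6 CA3 markers, 11 and 5 had enough counts to be tested, a filter that leaves out those at the limit. Prox1, the transcription factor that sets granule cell identity, is given although its spread was not among the widest of its list, since it defines the field, and it was chosen after its values were seen. It had 142 and 179 CPM in SKF, 248 and 167 with Aβ added, 184 and 194 with Aβ and CSP, 218 and 182 with Aβ and CSP-TTK21, and 161 and 163 under CSP-TTK21 alone. Its lowest library was in SKF and its highest in SKF+Aβ, and none of the 10 was near 0. Among the dentate markers only Tdo2, a tryptophan-degrading enzyme of mature granule cells, was at the floor, with 0 to 2 counts. Iyd, a CA3 marker, had 0 to 10 counts and was not tested.

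**Figure D1:**
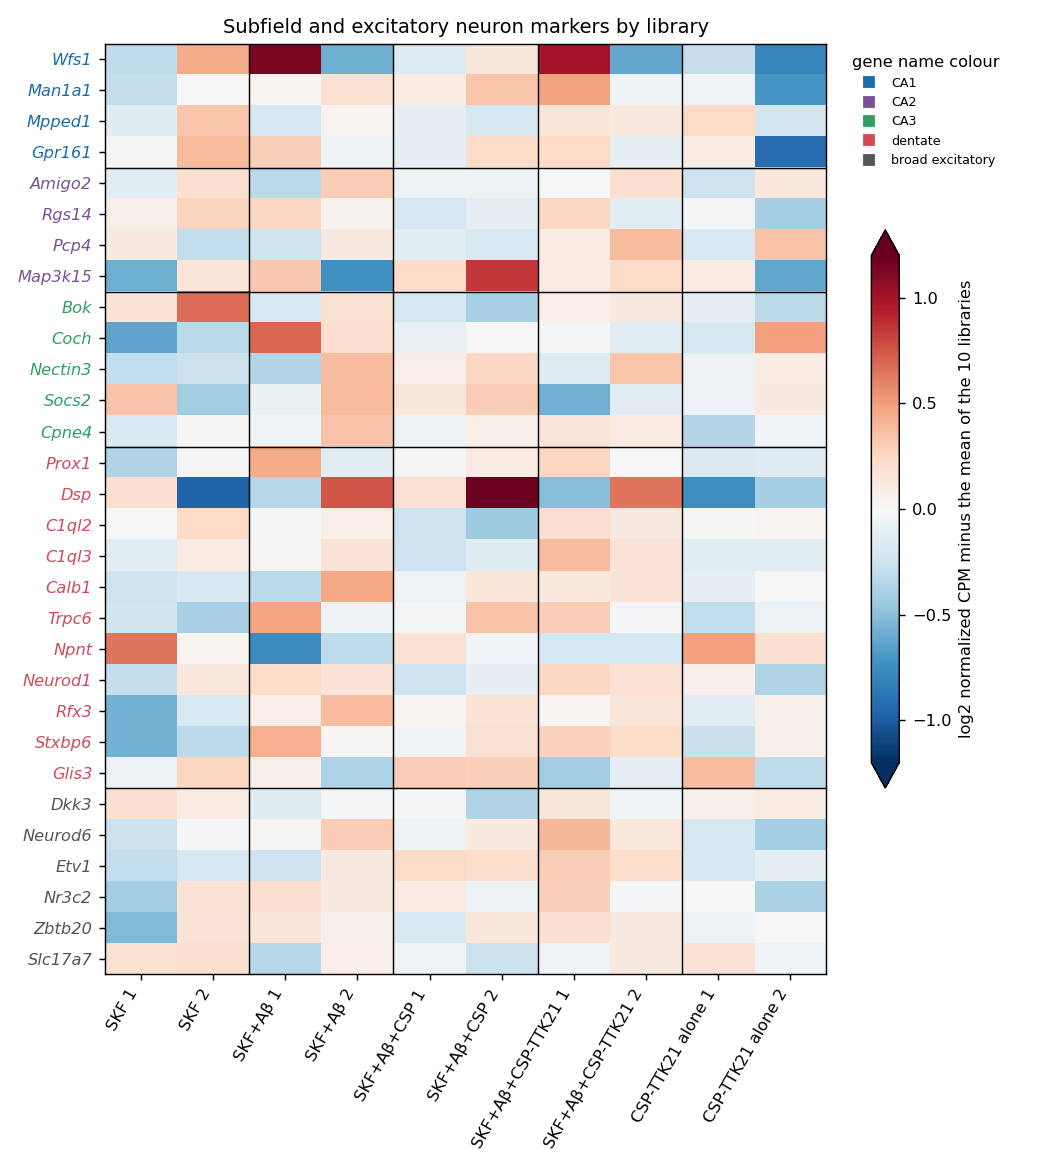
Each row is 1 of the 30 members tested, coloured by list, and each column a library. The colour is log2 normalized CPM minus the mean of the gene over the 10 libraries. Wfs1 and Dsp are among the strongest colours, on opposite sides in both SKF+Aβ libraries and in both SKF+Aβ+CSP-TTK21 libraries.

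Promoter sequences are shown for 3 members whose window holds a motif tied to the study or to neuronal transcription. CREB, a partner of CBP, binds the cAMP response element TGACGTCA, and TGACG is its shorter core. Factors of the Neurod family bind E-boxes such as CAGCTG and CATCTG. The windows run from 250 bases before to 50 bases after the gene start, taken from RefSeq on the build GRCr8, and both strands were searched, with 26 of the 36 members matched. Capitals mark the motif, and each sequence is written 5′ to 3′ on the strand of its gene.
Neurod6, chr4:86180106-86180405, minus strand: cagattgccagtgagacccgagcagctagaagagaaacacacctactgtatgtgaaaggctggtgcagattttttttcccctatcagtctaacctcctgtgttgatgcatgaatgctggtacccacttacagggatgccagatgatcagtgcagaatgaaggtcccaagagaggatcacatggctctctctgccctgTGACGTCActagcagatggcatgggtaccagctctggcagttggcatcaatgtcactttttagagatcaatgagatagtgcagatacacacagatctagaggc
Trpc6, chr8:14043966-14044265, plus strand: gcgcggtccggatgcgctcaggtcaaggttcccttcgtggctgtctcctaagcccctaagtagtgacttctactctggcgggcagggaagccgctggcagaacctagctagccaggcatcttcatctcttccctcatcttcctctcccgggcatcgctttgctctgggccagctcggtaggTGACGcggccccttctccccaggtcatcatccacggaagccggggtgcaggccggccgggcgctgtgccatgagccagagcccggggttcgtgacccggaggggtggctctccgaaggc
Wfs1, chr14:78034955-78035254, plus strand: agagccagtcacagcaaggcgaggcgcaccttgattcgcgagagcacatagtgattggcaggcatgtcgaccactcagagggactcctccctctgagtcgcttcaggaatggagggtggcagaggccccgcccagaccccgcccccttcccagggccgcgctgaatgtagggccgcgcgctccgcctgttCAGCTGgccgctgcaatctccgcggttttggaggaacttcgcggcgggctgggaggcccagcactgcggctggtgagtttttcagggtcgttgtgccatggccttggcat
The full element began 53 bases before the start of Neurod6 and was found in no other member, against 1.83% of 33469 promoters. Its core TGACG, which lies within the full element, was in 5 members, Man1a1, Trpc6, Glis3, Neurod6 and Neurod2, against 21.2% of all promoters. CAGCTG was in 5 members, Wfs1, C1ql3, Stxbp6, Glis3 and Etv1, against 15.1%, and CATCTG in 5, Mpped1, Rgs14, Glis3, Neurod6 and Neurod2, against 16.6%. A match of letters is not a bound site. The median GC content was 62.5% in the members' windows and 51.7% in all.

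The members as a whole varied between replicates somewhat more than the table did, unevenly by pair. Their median absolute log2 difference was 0.325 in SKF, against 0.245 for all genes, and 0.372 against 0.244 in SKF+Aβ. It was 0.171 against 0.168 in SKF+Aβ+CSP, 0.193 against 0.212 in SKF+Aβ+CSP-TTK21 and 0.311 against 0.223 in CSP-TTK21 alone. The median tested member had a within-group SD of 0.242 on the log2 scale and a ratio of 1.74 between its highest and lowest library, beside 0.21 and 1.73 for all genes tested. The ratio was under 2 in 21 of 30 members and in 64.9% of all genes. By list, the median ratio was 2.38 for CA1, 1.59 for CA2, 1.99 for CA3, 1.75 for the dentate gyrus and 1.56 for the broad excitatory genes.

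Wfs1 had the widest spread of the CA1 markers. Its replicates differed 3.30-fold in SKF+Aβ and 3.06-fold in SKF+Aβ+CSP-TTK21, with replicate 1 higher in both, and 1.18% and 0.798% of all genes tested differed by as much within those pairs. Its within-group SD was 0.80 on the log2 scale, which 1.66% of genes reached. Both differences were wider than the distance between any of its group means, which lay within 0.80 log2 units.

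Dsp, a desmosome protein that marks granule cells, had 5.39 and 2.27 CPM in SKF, 3.63 and 8.05 with Aβ added, 5.32 and 10.8 with Aβ and CSP, 3.20 and 7.41 with Aβ and CSP-TTK21, and 2.67 and 3.48 under CSP-TTK21 alone. In 4 of 5 pairs the library with the higher Wfs1 had the lower Dsp, the exception being SKF+Aβ+CSP. Dsp had a within-group SD of 0.70, which 2.99% of genes reached. It had 17 to 74 counts per library, against 734 to 2662 for Wfs1, so counting error weighs more in its spread. Over both the SKF+Aβ and the SKF+Aβ+CSP-TTK21 pair, replicate 1 was higher by over 1 log2 unit for 71 genes (0.472% of those tested), Wfs1 being the member among them, and lower for 57 genes (0.379%), Dsp being the member there.

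The other dentate markers were mixed. Calb1 was, like Dsp, higher in replicate 2 of SKF+Aβ, with 177 against 102 CPM, Prox1 was higher in replicate 1 of both these pairs, as Wfs1 was, and C1ql2 and C1ql3 had low within-group SDs of 0.0976 and 0.117. Markers of oligodendrocytes lay on the side of Wfs1 within most pairs. The summed level of Mbp, Mog, Mag, Mobp and Cnp, all 5 of which were tested and none of which was at 0, was 12410 and 18570 CPM in SKF, 10480 and 7701 with Aβ added, 12290 and 11740 with Aβ and CSP, 16350 and 10600 with Aβ and CSP-TTK21, and 11020 and 10320 under CSP-TTK21 alone. The library with the higher sum had the higher Wfs1 in 4 of 5 pairs, the exception being SKF+Aβ+CSP, where the sums were close, as in CSP-TTK21 alone, and their part in the result was not tested. Over all libraries the order differed, since the library with the most Wfs1, replicate 1 of SKF+Aβ, had a lower sum than replicate 1 of SKF. The summed level of the subiculum markers Fn1 and Nts, both of them tested, ran from 49.3 to 123 CPM. Fn1 alone had 41.4 to 101 CPM and Nts at most 31.1, so Fn1 made up most of the sum in every library. In SKF+Aβ+CSP-TTK21 against SKF+Aβ+CSP, Fn1 had a log2 fold change of -1.11. The endothelial genes Flt1 and Kdr had -1.04 and -1.19 there, and none of these passed the adjusted threshold by edgeR. The part of vessels in this sum was not tested.

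**Figure D2:**
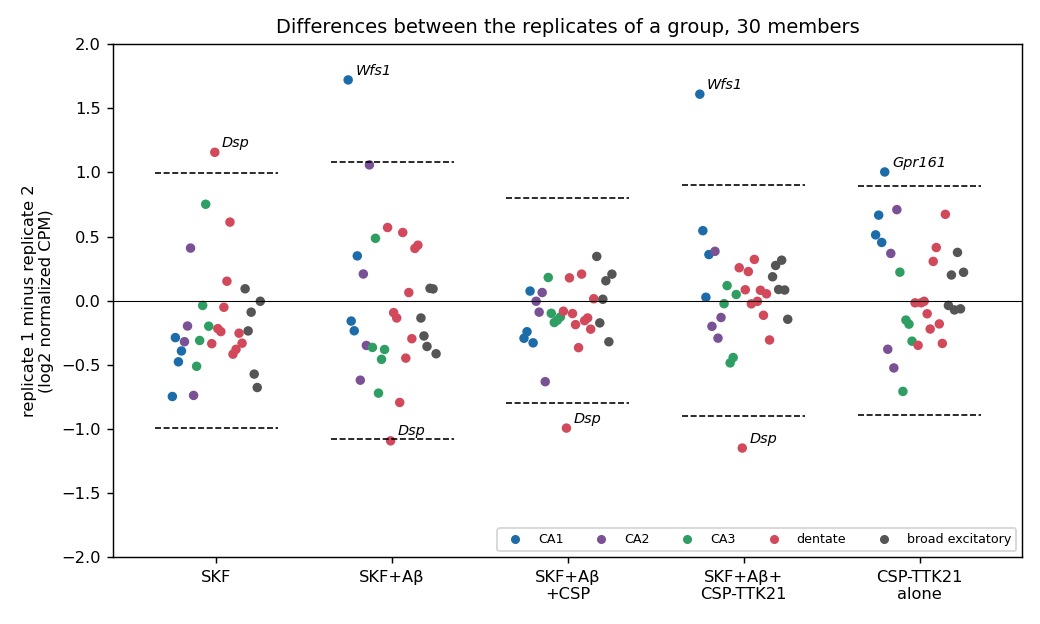
Each point is a member, and the vertical axis is replicate 1 minus replicate 2 in log2 normalized CPM, by group. Dashed lines are the 95th percentile of the absolute difference over all 15032 genes in that pair. Dsp lies beyond them in 4 pairs, Wfs1 in 2 and Gpr161 in 1.

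In CSP-TTK21 alone, replicate 2 was the lowest library for all 4 CA1 markers tested and for 7 of the 30 members, as many as replicate 1 of SKF, which was lowest for none of the CA1 markers. Gpr161, a receptor of the primary cilium, had 36.8 and 48.3 CPM in SKF, 45.3 and 35.5 with Aβ added, 34.5 and 43.4 with Aβ and CSP, 44.0 and 34.2 with Aβ and CSP-TTK21, and 39.4 and 19.5 under CSP-TTK21 alone. Man1a1, a Golgi mannosidase, had 62.6 and 76.5 CPM in SKF, 77.8 and 86.9 with Aβ added, 81.4 and 96.3 with Aβ and CSP, 107 and 73.1 with Aβ and CSP-TTK21, and 74.4 and 46.8 under CSP-TTK21 alone. Both genes had their lowest level in that library, and the first replicate of the group lay within the range of the other groups for each.

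The lists were also averaged per library. The CA1 list, the mean of 4 markers in log2 normalized CPM minus its mean over the libraries, ran from -0.66 in replicate 2 of CSP-TTK21 alone to 0.47 in replicate 1 of SKF+Aβ+CSP-TTK21, a range of 1.12. Without replicate 2 of CSP-TTK21 alone the range was 0.655. The ranges were 0.302 for the dentate gyrus, 0.305 for CA2, 0.395 for the broad excitatory genes and 0.453 for CA3, and the last was 0.227 without replicate 2 of SKF+Aβ. With the median over members, each gene first set relative to its own mean over the libraries, the ranges were 1.11 for CA1, 0.436 for the dentate gyrus, 0.349 for CA2, 0.515 for the broad excitatory genes and 0.597 for CA3. Averages over more genes tend to vary less. The CA1 and CA2 lists had 4 genes each, CA3 had 5, the broad excitatory list 6 and the dentate list 11. The part of list size in these ranges was not tested.

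**Figure D3:**
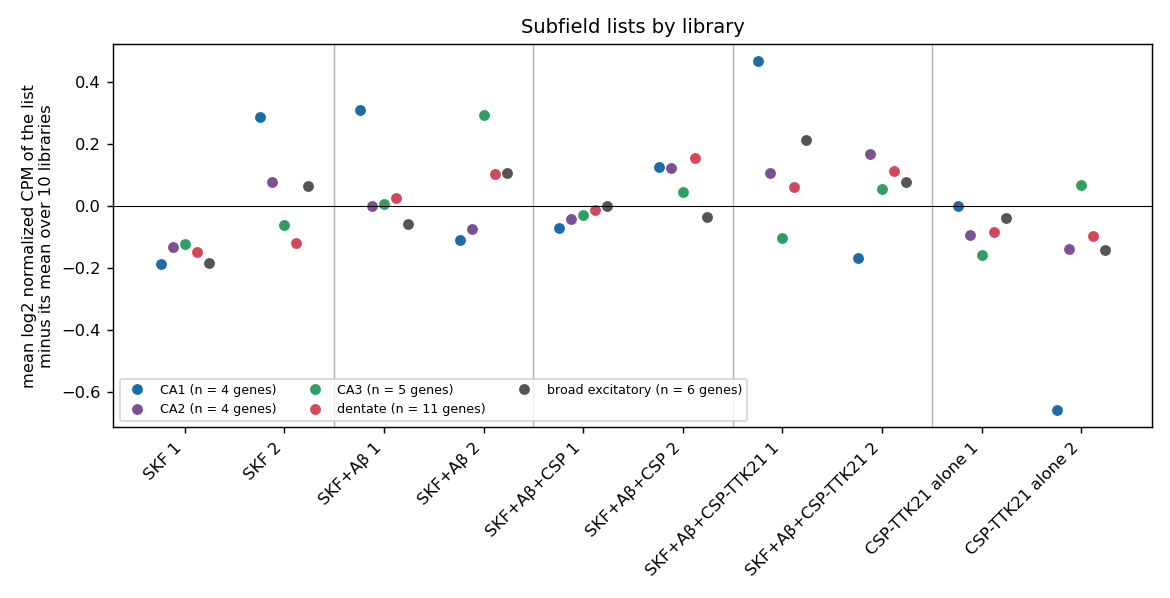
Points are the mean log2 normalized CPM of each list minus its mean over the 10 libraries, by library. The CA1 points run from -0.66 to 0.47, and the dentate points from -0.148 to 0.155.

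The mean of the dentate list minus that of the CA1 list, a measure of the balance of the 2 fields, was 0.04 and -0.41 in SKF, -0.28 and 0.21 with Aβ added, 0.06 and 0.03 with Aβ and CSP, -0.41 and 0.28 with Aβ and CSP-TTK21, and -0.08 and 0.56 under CSP-TTK21 alone. The within-group SD was 0.365 and the group means spanned 0.422, which was 0.227 without replicate 2 of CSP-TTK21 alone, 0.744 without its replicate 1, 0.646 without replicate 1 of SKF and 0.644 without replicate 2 of SKF+Aβ+CSP-TTK21. Each group overlapped with at least one other.

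No member passed the test over the 5 groups. With edgeR's quasi-likelihood F test the lowest adjusted p was 0.237, for Etv1, and 7 of 30 members had an unadjusted p under 0.05, against 14.3% of all genes, while 0.00665% of all genes passed the adjusted threshold. DESeq2, which gave an adjusted p to 23 of the 30, called 0 members over the 5 groups, against 4.89% of the 8329 genes with one. The 7 at an unadjusted p under 0.05 by edgeR were Bok, C1ql2, C1ql3, Rfx3, Stxbp6, Neurod6 and Etv1.

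Adding Aβ to SKF gave 312 genes called over the whole table with all 10 libraries, and 159, 8, 1 or 0 without replicate 2 of SKF, replicate 1 of SKF, replicate 2 of SKF+Aβ or replicate 1 of SKF+Aβ. Leaving out libraries that shared only the estimate of spread gave 35 or 34 without replicate 1 or 2 of SKF+Aβ+CSP and 204 without replicate 2 of CSP-TTK21 alone. With edgeR, 0 members passed at an adjusted p under 0.05, against 2.08% of all genes, and 6 of 30 had an unadjusted p under 0.05, against 22.8%. DESeq2, which gave an adjusted p to 24 of the 30, called 2, Rfx3 and Stxbp6, against 8.93% of all genes with one. When a log2 fold change beyond 1.5 was also required, edgeR called 0 members, against 0.146% of all genes. The groups did not overlap for 10 members, 7 of them higher with Aβ, against 49.6% of all genes. The median log2 fold change was 0.34 over 11 dentate markers, 0.25 over 5 CA3, 0.22 over 6 broad excitatory, 0.08 over 4 CA1 and -0.00082 over 4 CA2 markers, beside -0.0013 over all genes. These medians moved with single libraries, and leaving out one in turn gave 0.02 to 0.37 for the dentate list, -0.09 to 0.43 for CA3, -0.03 to 0.33 for the broad excitatory genes, -0.169 to 0.265 for CA1 and -0.15 to 0.11 for CA2. The lowest dentate and CA3 values came without replicate 2 of SKF+Aβ, the lowest CA1 value without replicate 1 of SKF+Aβ, and the lowest broad excitatory and CA2 values without replicate 1 of SKF. Of the 6 broad excitatory genes, 4 had a log2 fold change above 0 and 2 below, Slc17a7 at -0.30 and Dkk3 at -0.22. The groups did not overlap for Slc17a7 and Dkk3, nor for Neurod6, at 0.29. Markers of oligodendrocytes, the myelinating cells, lay lower with Aβ in the same comparison. The summed level of Mbp, Mog, Mag, Mobp and Cnp was 12410 and 18570 CPM in SKF against 10480 and 7701 with Aβ added, so the groups did not overlap. The 5 log2 fold changes ran from -0.80 for Mbp to -0.32 for Mog with a median of -0.66, and 4 of them had an unadjusted p under 0.05, while 0 passed the adjusted threshold by edgeR (adjusted p = 0.0745 for Mbp, the lowest). Their part in the members' values was not tested.

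The members closest to the threshold were 2 genes of the dentate list. Rfx3, a transcription factor of ciliated cells and neurons, was chosen after its values were seen. It had 74.0 and 96.2 CPM in SKF, 116 and 142 with Aβ added, 112 and 123 with Aβ and CSP, 112 and 121 with Aβ and CSP-TTK21, and 100.4 and 114 under CSP-TTK21 alone. Both SKF libraries lay below every other library. With Aβ the log2 fold change was 0.60 ± 0.16 (SE, 95% interval 0.26 to 0.93, 0.42 to 0.80 with 1 library left out, adjusted p = 0.0621) by edgeR. With at least 10 counts required in every library, Rfx3 was called at an adjusted p of 0.0496 by edgeR, against 3.36% of all genes, and with no filter Rfx3, Stxbp6 and Coch were called, against 5.19%. Stxbp6, which encodes the SNARE-binding protein amisyn, had 27.5 and 32.8 CPM in SKF, 55.0 and 41.4 with Aβ added, 39.9 and 46.6 with Aβ and CSP, 49.7 and 47.9 with Aβ and CSP-TTK21, and 33.9 and 42.8 under CSP-TTK21 alone. Its SKF libraries also lay below every other library, and its log2 fold change with Aβ was 0.68 ± 0.18 (SE, 95% interval 0.28 to 1.07, 0.46 to 0.86 with 1 library left out, adjusted p = 0.0666) by edgeR.

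All comparisons with SKF share these 2 SKF libraries, so they are not separate evidence. The log2 fold changes of Rfx3 were 0.46 ± 0.16 (SE, 95% interval 0.13 to 0.80, 0.29 to 0.67 with 1 library left out, adjusted p = 0.147) in SKF+Aβ+CSP and 0.45 ± 0.16 (SE, 95% interval 0.11 to 0.79, 0.27 to 0.65 with 1 library left out, adjusted p = 0.155) in SKF+Aβ+CSP-TTK21 by edgeR. Trpc6, a cation channel gene chosen after its values were seen, had 30.1 and 27.1 CPM in SKF, 49.5 and 34.1 with Aβ added, 35.1 and 45.3 with Aβ and CSP, 43.7 and 34.9 with Aβ and CSP-TTK21, and 29.0 and 33.8 under CSP-TTK21 alone. Its log2 fold change with Aβ was 0.55 ± 0.20 (SE, 95% interval 0.11 to 0.99, 0.25 to 0.78 with 1 library left out, adjusted p = 0.136) by edgeR. The summed level of the granule cell genes Dock10, Lct and Pdzd2, which are no members, was 328.5 and 348 CPM in SKF and 358 to 506 CPM in the other libraries. Dock10 had 209 and 262 CPM in SKF and 251 to 411 CPM elsewhere, while Pdzd2 had its highest level, 118 CPM, in replicate 1 of SKF, so the sum follows Dock10, and its part in these values was not tested.

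CA3 markers had fold changes on both sides of 0. Coch, an extracellular matrix gene, had 4.15 and 5.21 CPM in SKF, 10.8 and 7.60 with Aβ added, 6.14 and 6.60 with Aβ and CSP, 6.52 and 5.99 with Aβ and CSP-TTK21, and 5.63 and 9.36 under CSP-TTK21 alone. Its log2 fold change with Aβ was 0.97 ± 0.31 (SE, 95% interval 0.31 to 1.64, 0.70 to 1.19 with 1 library left out, adjusted p = 0.0951) by edgeR. Bok, a gene of the Bcl-2 family, had 30.6 and 43.6 CPM in SKF, 24.0 and 31.0 with Aβ added, 23.6 and 20.8 with Aβ and CSP, 28.9 and 29.4 with Aβ and CSP-TTK21, and 25.5 and 21.8 under CSP-TTK21 alone. It was highest in replicate 2 of SKF, and its log2 fold change was -0.43 ± 0.20 (SE, 95% interval -0.85 to -0.01, -0.67 to -0.15 with 1 library left out, adjusted p = 0.207) with Aβ by edgeR.

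**Figure D4:**
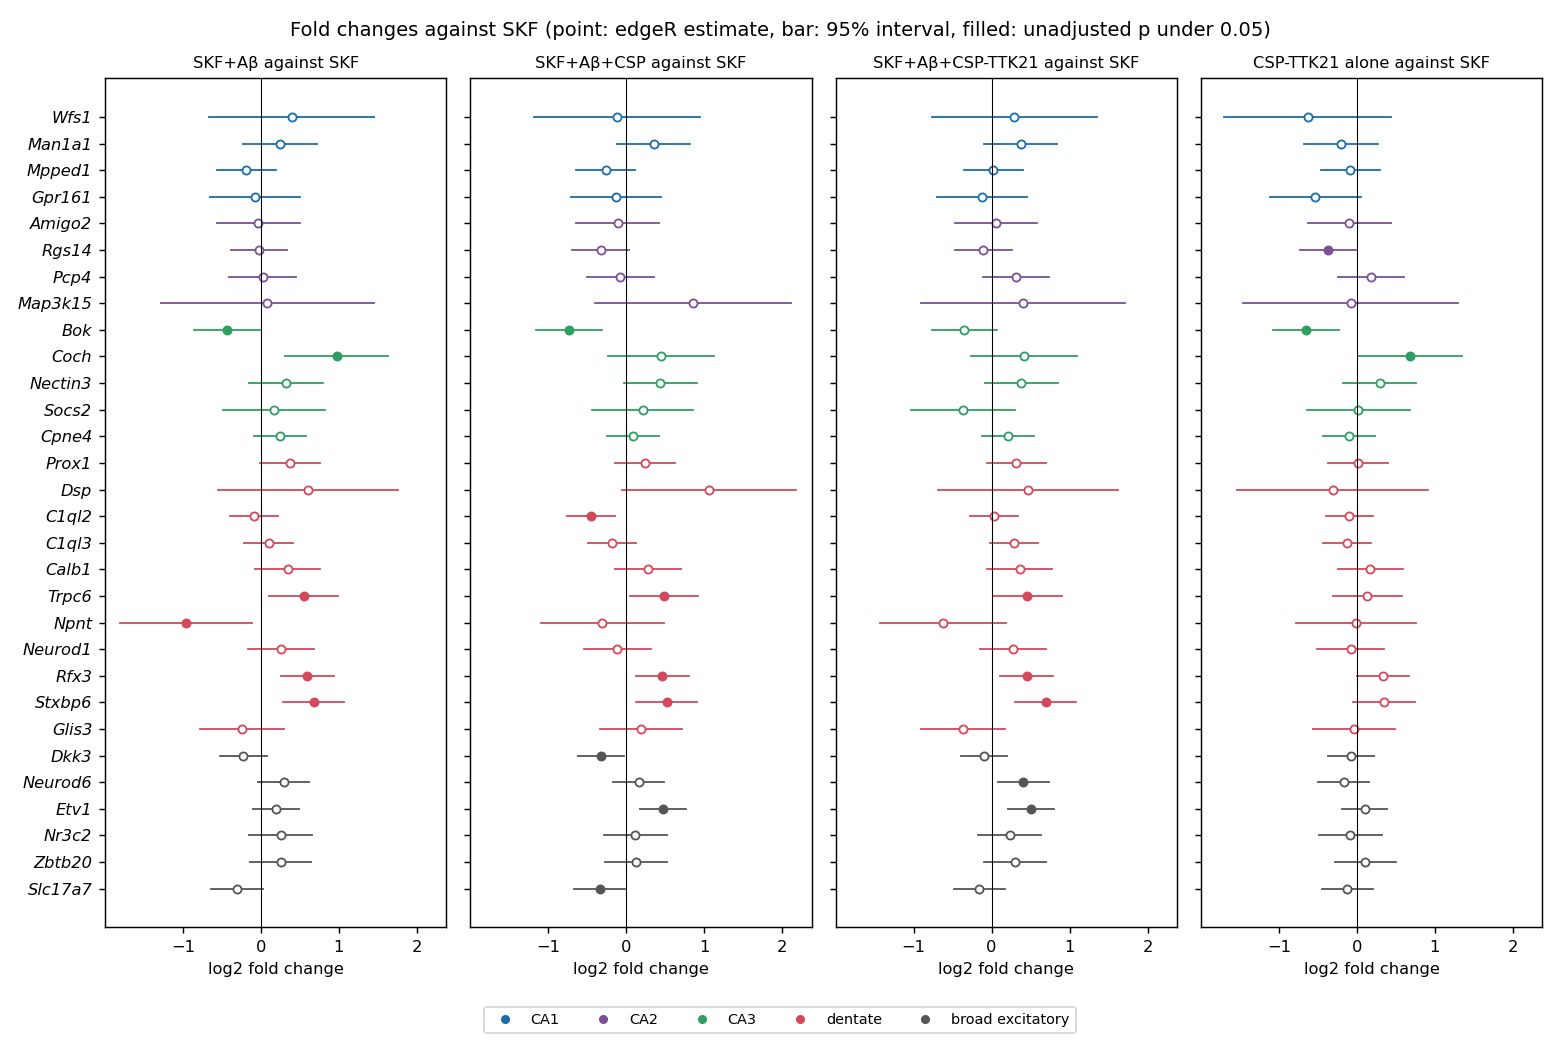
Log2 fold changes of the 30 members against SKF in 4 comparisons, with 95% intervals, from edgeR. Filled points have an unadjusted p under 0.05, and none passed after adjustment. Wfs1, Dsp and Map3k15 have the widest intervals.

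The groups given Aβ with the bare or the loaded sphere were compared with SKF in the same fit. SKF had neither Aβ nor a sphere, so their parts cannot be told apart in these comparisons. In SKF+Aβ+CSP against SKF, edgeR called 0 members against 0.0200% of all genes, and 8 of 30 had an unadjusted p under 0.05 against 19.3%, 4 in each direction. DESeq2 called 1 of the 25 members with an adjusted p, Bok, against 4.62% of all genes with one. When a log2 fold change beyond 1.5 was also required, edgeR called 0 members, against 0.0133%. The groups did not overlap for 17 members, against 52.4% of all genes. The log2 fold change of Bok was -0.74 ± 0.20 (SE, 95% interval -1.16 to -0.31, -0.97 to -0.46 with 1 library left out, adjusted p = 0.0934) by edgeR. In SKF+Aβ+CSP-TTK21 against SKF, edgeR called 0 members against 0.00665%, and 5 had an unadjusted p under 0.05, all higher, against 19.6%. DESeq2 called 2 of the 23 members with an adjusted p, Etv1 and Stxbp6, against 4.58% of all genes with one. Without replicate 2 of SKF, edgeR called 323 genes over the whole table in place of 1, and still 0 members. The groups did not overlap for 16 members, against 50.5%.

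Etv1, a transcription factor of the ETS family that was chosen after its values were seen, had 104 and 111 CPM in SKF, 108 and 138 with Aβ added, 149.9 and 149 with Aβ and CSP, 157 and 148 with Aβ and CSP-TTK21, and 112 and 118 under CSP-TTK21 alone. The 4 libraries with a sphere and Aβ lay above all the others. Its log2 fold change against SKF was 0.47 ± 0.14 (SE, 95% interval 0.18 to 0.76, 0.43 to 0.52 with 1 library left out, adjusted p = 0.104) in SKF+Aβ+CSP and 0.50 ± 0.14 (SE, 95% interval 0.21 to 0.80, 0.46 to 0.55 with 1 library left out, adjusted p = 0.113) in SKF+Aβ+CSP-TTK21 by edgeR. Neurod6, a transcription factor of pyramidal neurons, had 115 and 135 CPM in SKF, 138 and 168 with Aβ added, 131 and 148 with Aβ and CSP, 181 and 149 with Aβ and CSP-TTK21, and 119 and 103 under CSP-TTK21 alone. Its log2 fold change in SKF+Aβ+CSP-TTK21 was 0.40 ± 0.15 (SE, 95% interval 0.08 to 0.73, 0.26 to 0.53 with 1 library left out, adjusted p = 0.182) by edgeR.

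CSP-TTK21 alone against SKF had 0 members called by edgeR, against 0.00% of all genes, and 0 by DESeq2, against 0.02%. At an unadjusted p under 0.05 there were 3 members, Bok, Coch and Rgs14, against 7.78%. The groups did not overlap for 10 members, against 36.1%. All 4 CA1 markers had a log2 fold change below 0, with a median of -0.37, and each had its lowest library in replicate 2 of CSP-TTK21 alone. Without that library 2 of the 4 lay above 0 and the median was -0.00735, and without replicate 2 of SKF it was -0.13. It was -0.74 without replicate 1 of CSP-TTK21 alone and -0.53 without replicate 1 of SKF. The furthest from 0 was that of Wfs1, -0.63 ± 0.50 (SE, 95% interval -1.70 to 0.44, -0.95 to -0.21 with 1 library left out, adjusted p = 0.754) by edgeR, an interval that holds 0. With no filter on low counts, edgeR called Wfs1 here (adjusted p = 0.00806), against 0.622% of all genes, and in the other alternatives run it did not. The 5 oligodendrocyte markers also lay lower in this comparison. Their log2 fold changes ran from -0.574 for Mbp to -0.165 for Mog, with a median of -0.388, and 0 passed the adjusted threshold by edgeR. Their part in the CA1 values was not tested.

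Among the 3 groups with Aβ, no member was called by edgeR or by DESeq2. In SKF+Aβ+CSP against SKF+Aβ, 1 member, C1ql2, had an unadjusted p under 0.05, against 2.18% of all genes. The groups did not overlap for 10, against 27.2%. In SKF+Aβ+CSP-TTK21 against SKF+Aβ it was also 1, Etv1, against 6.59%, with 7 not overlapping, against 35.9%. In SKF+Aβ+CSP-TTK21 against SKF+Aβ+CSP there were 3, against 8.78%, with 14 not overlapping, against 46.3%. The share of all genes called at an adjusted p under 0.05 was 0.00% by edgeR in each of the 3. By DESeq2 it was 0.00665%, 0% and 0.177% of the genes with an adjusted p, in the order given. Those genes numbered 12409 in the last comparison, with 28 of the 30 members among them, and 15032 in the others.

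The 3 members in the last comparison were C1ql2, C1ql3 and Glis3, all of the dentate list. C1ql2, a synaptic organiser released by mossy fibres and chosen after its values were seen, had 49.9 and 58.1 CPM in SKF, 49.2 and 52.5 with Aβ added, 41.8 and 36.9 with Aβ and CSP, 56.9 and 53.6 with Aβ and CSP-TTK21, and 50.2 and 50.8 under CSP-TTK21 alone. Its log2 fold change between the activator and the vehicle sphere was 0.49 ± 0.14 (SE, 95% interval 0.18 to 0.79, 0.40 to 0.58 with 1 library left out, adjusted p = 0.517) by edgeR. C1ql3, its close relative, had 55.4 and 65.5 CPM in SKF, 61.7 and 67.8 with Aβ added, 51.4 and 55.1 with Aβ and CSP, 79.6 and 68.0 with Aβ and CSP-TTK21, and 55.4 and 55.6 under CSP-TTK21 alone. For C1ql3 that log2 fold change was 0.47 ± 0.14 (SE, 95% interval 0.16 to 0.78, 0.35 to 0.58 with 1 library left out, adjusted p = 0.517) by edgeR. Glis3 lay on the other side, with -0.56 ± 0.25 (SE, 95% interval -1.09 to -0.03, -0.72 to -0.41 with 1 library left out, adjusted p = 0.564) by edgeR. C1ql2 and C1ql3 were at their lowest group mean in SKF+Aβ+CSP, and were among the steadier members, C1ql2 having a within-group SD of 0.10, which 91.0% of genes reached.

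**Figure D5:**
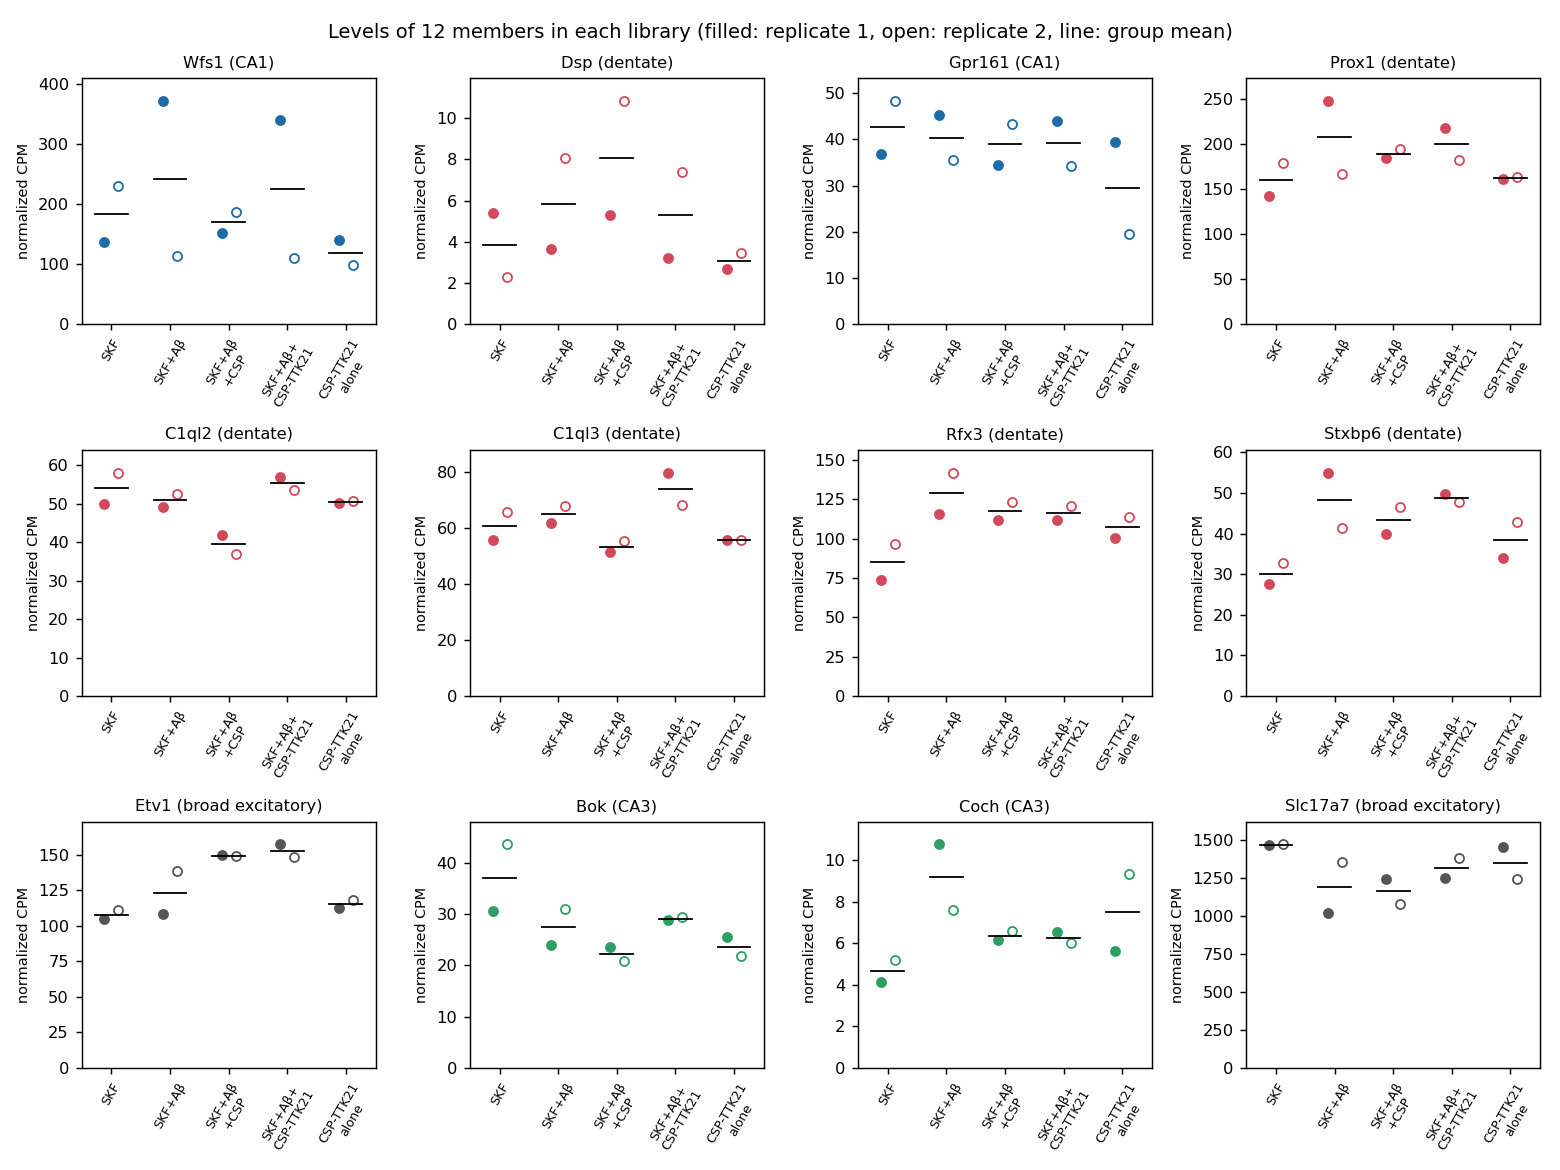
Normalized CPM of 12 members by group, with replicate 1 filled, replicate 2 open and a line at the group mean. The replicates of Wfs1 and Dsp are far apart, while those of C1ql2 nearly coincide in CSP-TTK21 alone.

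Other dentate markers had no value past the threshold. Npnt, an extracellular matrix gene, had 4.84 and 3.07 CPM in SKF, 1.68 and 2.38 with Aβ added, 3.43 and 2.93 with Aβ and CSP, 2.56 and 2.57 with Aβ and CSP-TTK21, and 4.36 and 3.48 under CSP-TTK21 alone. It was lower in both SKF+Aβ libraries than in both SKF libraries, with 12 to 35 counts per library. Its log2 fold change with Aβ was -0.96 ± 0.39 (SE, 95% interval -1.80 to -0.12, -1.25 to -0.60 with 1 library left out, adjusted p = 0.168) by edgeR. Neurod1, a transcription factor of young granule cells, had 16.0 and 21.5 CPM in SKF, 22.9 and 21.9 with Aβ added, 16.4 and 18.3 with Aβ and CSP, 23.4 and 22.1 with Aβ and CSP-TTK21, and 20.4 and 15.2 under CSP-TTK21 alone. Both SKF+Aβ libraries lay above both SKF libraries, and the log2 fold change was 0.26 ± 0.20 (SE, 95% interval -0.17 to 0.68, 0.06 to 0.48 with 1 library left out, adjusted p = 0.461) by edgeR, an interval that holds 0. Calb1 ran from 102 to 177 CPM, the transcription factor gene Glis3 from 11.2 to 19.6 CPM and the CA2 kinase gene Map3k15 from 0.60 to 2.35 CPM.

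Among CA3 markers, Nectin3, a cell adhesion gene, had 37.5 and 38.5 CPM in SKF, 35.9 and 59.3 with Aβ added, 48.4 and 54.5 with Aβ and CSP, 41.3 and 57.9 with Aβ and CSP-TTK21, and 44.0 and 48.9 under CSP-TTK21 alone. Cpne4, a calcium-binding copine, had 153 and 176 CPM in SKF, 170.0 and 221 with Aβ added, 167 and 183 with Aβ and CSP, 193 and 187 with Aβ and CSP-TTK21, and 137 and 171 under CSP-TTK21 alone. Socs2, a suppressor of cytokine signalling, had 9.40 and 5.47 CPM in SKF, 6.98 and 9.69 with Aβ added, 8.15 and 9.09 with Aβ and CSP, 4.86 and 6.70 with Aβ and CSP-TTK21, and 7.03 and 8.02 under CSP-TTK21 alone. In SKF+Aβ, replicate 2 was above replicate 1 for all 3.

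Of the CA2 markers, Pcp4, a calmodulin-binding peptide, had 74.2 and 55.8 CPM in SKF, 58.1 and 74.1 with Aβ added, 63.0 and 60.2 with Aβ and CSP, 72.7 and 89.1 with Aβ and CSP-TTK21, and 60.4 and 86.9 under CSP-TTK21 alone. Rgs14, a regulator of G protein signalling, had 81.0 and 92.9 CPM in SKF, 91.6 and 79.3 with Aβ added, 67.2 and 71.5 with Aβ and CSP, 91.7 and 70.2 with Aβ and CSP-TTK21, and 75.8 and 58.7 under CSP-TTK21 alone. Amigo2, an adhesion protein, had 10.6 and 13.3 CPM in SKF, 9.22 and 14.3 with Aβ added, 11.1 and 11.1 with Aβ and CSP, 11.6 and 13.4 with Aβ and CSP-TTK21, and 9.71 and 12.7 under CSP-TTK21 alone. Their ratios between highest and lowest library were 1.60, 1.58 and 1.55.

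The broad excitatory genes had the lowest median within-group SD of the lists, 0.167, and the ratio stayed under 2 in all 6 tested. Slc17a7 had 1469 and 1474 CPM in SKF, 1022 and 1361 with Aβ added, 1247 and 1081 with Aβ and CSP, 1253 and 1386 with Aβ and CSP-TTK21, and 1455 and 1248 under CSP-TTK21 alone. Both SKF libraries lay above every other library for Slc17a7. Its log2 fold change in SKF+Aβ+CSP against SKF was -0.34 ± 0.15 (SE, 95% interval -0.67 to -0.01, -0.45 to -0.24 with 1 library left out, adjusted p = 0.25) by edgeR. Dkk3, a secreted relative of Wnt inhibitors, had 333 and 313 CPM in SKF, 264 and 289 with Aβ added, 288 and 227 with Aβ and CSP, 321 and 282 with Aβ and CSP-TTK21, and 303 and 311 under CSP-TTK21 alone. Zbtb20, a transcription factor that specifies hippocampal fields, had 175 and 279 CPM in SKF, 279 and 262 with Aβ added, 221 and 276 with Aβ and CSP, 287 and 271 with Aβ and CSP-TTK21, and 239.6 and 250.4 under CSP-TTK21 alone. The lowest library of Zbtb20 was replicate 1 of SKF, which was also the lowest of Nr3c2, the mineralocorticoid receptor, with 115 and 170.5 CPM in SKF, 176 and 164 with Aβ added, 163 and 146 with Aβ and CSP, 186 and 149 with Aβ and CSP-TTK21, and 152 and 117 under CSP-TTK21 alone.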

How the data were processed

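RNA-seq of dissected CA1 was deposited as counts per rat gene for 10 libraries. Per the labels and the study's methods, the authors made the counts from stranded paired-end libraries, depleted of ribosomal RNA, without normalization. The methods name Trim Galore, Samtools duplicate removal, TopHat2 and Cufflinks with a rat and then a mouse build, and the submitters' processing notes name STAR, RSEM, HISAT2, Salmon and GRCh38. Which program counted the reads, with what annotation and strand setting, is not given in the sources used here, so overlapping and near-identical genes are uncertain.

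Counts were analysed with R 4.3.3 and edgeR 4.0.16. Genes were filtered with filterByExpr by group, normalized with TMM and fitted with 1 mean per group over all 10 libraries (common biological coefficient of variation 0.136). Quasi-likelihood tests gave 7 comparisons of 2 groups and a test over 5 groups, with Benjamini-Hochberg adjustment over 15032 genes and a threshold of 0.05. A log2 fold change beyond 1.5 in addition left 0 members in each comparison. Log2 CPM used a prior count of 2. The script was tested on simulated data. Alternatives were DESeq2 1.42.0, other scaling and filters, the replicate number as a block, fits of only the libraries compared and each library left out.

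The members and lists were chosen with earlier results of these data known, and fields were assigned to genes from textbook knowledge. Values in every library were given, within each list, for the 3 members with the widest and the 2 with the narrowest range of log2 CPM among those with at least 10 counts in every library. Replicates came from pooled slices, and p-values measure the spread between 2 such pools. Floors cover counting error only. The untreated group was not analysed here. One oligodendrocyte marker is not reported here, and the summed level leaves it out. Promoters were matched by symbol to RefSeq.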

Additional observations from a re-analysis of the deposited data

How the results depend on the processing

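None of the fold changes of single members printed above with a range for 1 library left out reversed under an alternative. Nor did any other of the 27 at an unadjusted p under 0.05. These 27 were picked for lying far from 0, so their kept sign is no separate support. Of the 183 other member fold changes, 102 changed sign when some library was left out. The CA1, CA2, CA3 and broad excitatory list medians of SKF+Aβ against SKF also changed sign with 1 library left out, to the values given beside them. The cause of the changes below was not tested. In SKF+Aβ against SKF, the count of members called went from 0 to 1 with the replicate block (Rfx3, adjusted p = 0.0359 by edgeR, against 2.83% of all genes), 1 with at least 10 counts in every library (Rfx3, adjusted p = 0.0496, against 3.36%), 3 with no filter (Rfx3, Stxbp6 and Coch, against 5.19%), 2 with DESeq2 (against 8.93%) and 6 at an unadjusted p under 0.05. In SKF+Aβ+CSP against SKF it went to 1 with no filter (Bok, against 2.99%), 1 with DESeq2 and 8 unadjusted, in SKF+Aβ+CSP-TTK21 against SKF to 1 (Stxbp6, against 3.57%), 2 and 5, and in CSP-TTK21 alone against SKF to 1 with no filter (Wfs1) and 3 unadjusted. Unadjusted counts among the groups with Aβ were 1, 1 and 3. Over the 5 groups the count was 6 with no filter (Wfs1, Dsp, Man1a1, Neurod6, Stxbp6 and Bok, lowest adjusted p = 3.67e-08 by edgeR, against 5.55%) and 7 unadjusted. The block changed no other count of members. Deviations of same-numbered libraries correlated at -0.0691 to 0.237, over 0.1 in 4 of 10 pairs, so the numbers were not taken to pair them. Leaving out each library in turn gave 0 members in every comparison. In SKF+Aβ against SKF the genes called over the whole table then ran from 0 to 299, beside 312, and in SKF+Aβ+CSP-TTK21 against SKF from 0 to 323, beside 1.

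For the range of a list over the libraries, the median over members gave 0.597 for CA3, 0.436 for the dentate gyrus and 0.515 for the broad excitatory genes, and the core members gave 0.582 for the dentate gyrus. Without Amigo2, Rgs14 or Pcp4 the CA2 range was 0.411, 0.468 or 0.525, without C1ql2 or Npnt the dentate range was 0.375 or 0.4, and without Slc17a7 the broad excitatory range was 0.52. Leaving out a library gave 0.655 to 1.12 for CA1 and 0.227 to 0.453 for CA3. With 2 libraries a group, a difference as wide as that between the Wfs1 replicates cannot be tied to a treatment.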

Other observations

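Of 19 genes that mark a subfield, granule cells, mossy cells, young granule cells or the subiculum and are no members, 17 were tested and 0 passed at an adjusted p under 0.05 in any of 7 comparisons by edgeR. At an unadjusted p under 0.05 there were 3 in SKF+Aβ against SKF, against 22.8% of all genes, 6 in SKF+Aβ+CSP-TTK21 against SKF, against 19.6%, 3 in SKF+Aβ+CSP-TTK21 against SKF+Aβ+CSP, against 8.78%, 2 in SKF+Aβ+CSP against SKF, against 19.3%, 2 in CSP-TTK21 alone against SKF, against 7.78%, 2 in SKF+Aβ+CSP-TTK21 against SKF+Aβ, against 6.59%, and 1 in SKF+Aβ+CSP against SKF+Aβ, against 2.18%. Dock10, a granule cell gene, had 1513 to 3215 counts, and its log2 fold change with Aβ was 0.61. Nov, a CA1 gene, had 899 to 1702 counts, and Dcx, a gene of young granule cells, 203 to 511. Avpr1b was listed at 0 in every library.

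Interneuron markers had a summed level of 384 to 550.0 CPM and general neuron markers of 5209 to 6694 CPM. Astrocyte markers ran from 2522 to 3694 CPM and microglia markers from 49.2 to 111 CPM. Meningeal markers ran from 9.54 to 32.2 CPM, choroid plexus markers from 1.14 to 7.03 CPM, and the thalamic genes Tcf7l2 and Prkcd from 22.6 to 36.1 CPM. These sums were not tested.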
